A study of Mus musculus with 2 samples.

Results

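The genes described here are the 4 *Egr* genes (*Egr1*, *Egr2*, *Egr3* and *Egr4*), the 3 *Nr4a* genes (*Nr4a1*, *Nr4a2* and *Nr4a3*), *Arc*, *Ier2* and *Ier3*. They were chosen by symbol as a set of immediate early genes, with earlier results of these data known. They are 10 of the 55573 genes in the deposited tables. Each symbol matched 1 Ensembl gene identifier, and all 10 genes had at least 10 reads over both libraries. RNA-seq was performed on mesenteric artery, a resistance artery of the gut, from wild type C57BL/6 mice aged 10 weeks. The control library came from arteries kept in 5 mM K+ and the depolarized library from arteries in 60 mM K+, with 60 min given for each by the labels. Each library pooled tissue of 2 mice, and there was 1 library per condition. According to the methods, every solution held tetrodotoxin, which blocks nerve action potentials. In the supplementary methods, control tissue is the part distal to a ligature. It was taken after incubation without perfusion and before the rest was perfused with 60 mM K+. The main text instead describes perfusion with either solution. By the supplementary methods, K+, arterial segment, perfusion and time in solution cannot be told apart. Without replicates the differences between these libraries have no measured biological error, and the conditions are compared without p-values. In bulk tissue, fewer cells of a type and less RNA per cell cannot be told apart either.

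Immediate early genes are transcribed within minutes of a stimulus, without waiting for new protein. In excitable cells a common stimulus is Ca2+ entry through voltage-gated channels, which acts on their promoters through kinases and through the factors CREB and SRF. EGR proteins are zinc finger transcription factors that bind GC-rich sites, and NR4A proteins are orphan nuclear receptors that are controlled mainly by how much of them is made. Arc is best known from neurons, where it regulates synaptic glutamate receptors. Ier2 is a nuclear protein, and Ier3 is a stress-induced protein that affects cell survival.

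Promoter sequences show what some of these genes carry for the CREB and SRF pathways. They were taken from the RefSeq promoter table (GRCm38.p6), which covers 250 bases before and 50 bases after a transcription start. Promoters of 6 of the 10 genes were searched. *Egr1*, *Egr3*, *Arc* and *Ier2* were not among them, so the counts below say nothing about the sites of these genes. Both strands were searched for the full cAMP response element (CRE, TGACGTCA), the CRE half-site (TGACG, which a full CRE also contains), the AP-1 site (TGACTCA), the NBRE to which NR4A monomers bind (AAAGGTCA), the EGR site (GCGNGGGCG), the CArG box bound by SRF, and the NF-kB site. The CRE half-site was present for 5 of the 6 genes (*Egr2*, *Egr4*, *Nr4a1*, *Nr4a2* and *Nr4a3*), and in 20.8% of all 32851 promoters of this length. Genes are counted if any of their starts has the site, whereas the share is per start. *Egr2* has 5 starts, of which 3 hold the half-site and 4 the CArG box, and the other 5 genes have 1 start each. *Nr4a1*, *Nr4a2* and *Nr4a3* each had 4 half-sites in the window and *Egr4* had 2. The EGR site was found for 2 genes, *Nr4a1* and *Nr4a2*, and in 5.55% of all promoters. The CArG box was found for 1 of the 6 genes searched, *Egr2*, and in 1.63% of all promoters. Whether *Egr1*, *Egr3*, *Arc* or *Ier2* carries this box was not tested. The NF-kB site was found for 3 genes, *Egr4*, *Ier3* and *Nr4a1*, and in 4.51% of all promoters. The full CRE, the AP-1 site and the NBRE were found for 0 of the 6 genes, and in 1.79%, 5.20% and 1.51% of all promoters. A match describes the letters in this window and not the binding of a factor.

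The stretches that hold the sites before the start are printed 5′ to 3′ on the strand of the gene. Capitals mark CRE half-sites on either strand, and also the EGR site in *Nr4a1* and *Nr4a2*, the NF-kB site in *Egr4* and *Ier3*, and the CArG box in *Egr2*. They lie at chr15:101266603-101266820 for *Nr4a1* (plus strand), chr2:57124059-57124213 for *Nr4a2* (minus strand), chr4:48045064-48045172 for *Nr4a3* (plus strand), chr6:85513684-85513776 for *Egr4* (minus strand), chr10:67537748-67537828 for *Egr2* (plus strand) and chr17:35821611-35821640 for *Ier3* (plus strand). For *Egr2*, 1 start is shown.
*Nr4a1*: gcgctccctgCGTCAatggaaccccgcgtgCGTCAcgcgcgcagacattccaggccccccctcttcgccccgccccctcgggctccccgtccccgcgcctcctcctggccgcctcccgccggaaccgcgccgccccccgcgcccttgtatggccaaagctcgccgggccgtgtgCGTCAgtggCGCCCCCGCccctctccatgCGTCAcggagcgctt
*Nr4a2*: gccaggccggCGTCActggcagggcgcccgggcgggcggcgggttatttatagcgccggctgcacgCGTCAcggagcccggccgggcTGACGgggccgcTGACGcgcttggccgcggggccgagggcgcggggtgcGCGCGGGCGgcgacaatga
*Nr4a3*: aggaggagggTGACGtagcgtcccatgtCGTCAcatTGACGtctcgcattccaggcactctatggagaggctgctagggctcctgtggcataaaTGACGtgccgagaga
*Egr4*: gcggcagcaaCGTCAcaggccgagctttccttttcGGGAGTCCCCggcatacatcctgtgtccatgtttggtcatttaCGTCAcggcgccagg
*Egr2*: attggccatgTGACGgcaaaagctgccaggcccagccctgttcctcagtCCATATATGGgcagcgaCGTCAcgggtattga
*Ier3*: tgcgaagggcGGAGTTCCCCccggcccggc
The CArG box of *Egr2* lies from -72 to -63 relative to this start, between half-sites that begin at -111 and -55. The EGR site of *Nr4a1* lies from -60 to -52, between half-sites that begin at -69 and -40. *Ier3* had no half-site in its window.

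Both families are made of separate genes whose products resemble one another mainly in the part that binds DNA. From the GENCODE vM1 coding sequences, each EGR protein had 3 zinc fingers of the C2H2 type within 79 residues. Over this stretch EGR1 and EGR2 were 94.9% identical and EGR3 and EGR4 were 81.0% identical. Over the whole protein, identity within the EGR family was between 26.3% for EGR1 with EGR4 and 47.7% for EGR2 with EGR3. In the zinc-binding core of the NR4A receptors, 56 residues long, NR4A2 and NR4A3 did not differ and NR4A1 was 91.1% identical to each. The longest run of bases shared by transcripts of 2 genes was 44 for *Egr2* and *Egr3* and 27 for *Nr4a2* and *Nr4a3*. The sources used here do not say how reads that fit more than 1 gene were treated.

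The control library held 10480918 reads assigned to genes, and the depolarized one held 11289598. Log2(fold-change) denotes 60 mM K+ over 5 mM K+ after scaling both libraries by the trimmed mean of M-values (TMM). Its 95% interval is an exact Clopper-Pearson interval and covers counting error only. The median over all 14829 genes with at least 10 reads was -0.0047 with TMM and -0.21 with total counts. Scaling to *Ppia* and *Hprt*, which the study used as its qPCR reference genes, gave -0.51. A median near 0 is what TMM aims for, so these medians do not favour a scaling. Values below are given with TMM, and directions that another scaling turns are named for the genes given with values. All 8 smooth muscle markers were present, with 415564 control and 425201 depolarized reads in sum. Reads fell on 8 endothelial markers 38982 and 49176 times, on 6 fibroblast markers 74969 and 58181 times, on 8 macrophage markers 465 and 350 times and on 6 pancreas markers 131 and 444 times. The 6 adipocyte markers had 1407 and 1100 reads, the 3 red blood cell markers 648 and 403, and the 8 nerve and Schwann cell markers 1821 and 1847, with the neuronal genes *Th* and *Snap25* at 0 in both libraries. The 6 housekeeping genes had a median log2(fold-change) of 0.49. The part of these cells and genes in the results was not tested.

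In control arteries the 10 genes ranged from 0.355 FPKM for *Egr4* to 2679 FPKM for *Nr4a1* (FPKM is a level per transcript length). *Egr4*, *Arc* and *Ier3* passed a 2-fold increase (log2(fold-change) above 1), so that 3 of 10 genes did, compared with 5.54% of all genes tested. No member passed a 2-fold decrease (0 of 10), compared with 5.86% of all genes. *Ier2*, *Nr4a3* and *Egr2* lay between 0.5 and 1, and the other 4 genes, *Egr1*, *Nr4a1*, *Nr4a2* and *Egr3*, lay between -0.5 and 0.5. The median log2(fold-change) over the 10 genes was 0.81, and 8 of them were above 0, compared with 49.6% of all genes. When only genes with 1000 reads or more were kept, which was decided after the values were seen, 2 of 9 members and 3.59% of all 4096 genes passed the 2-fold increase, while 7 of 9 members and 65.2% of all such genes were above 0. For all 3 genes past 2-fold, the lower end of the counting interval also lay above 1, as it did for 1.77% of all genes tested.

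**Figure D1:**
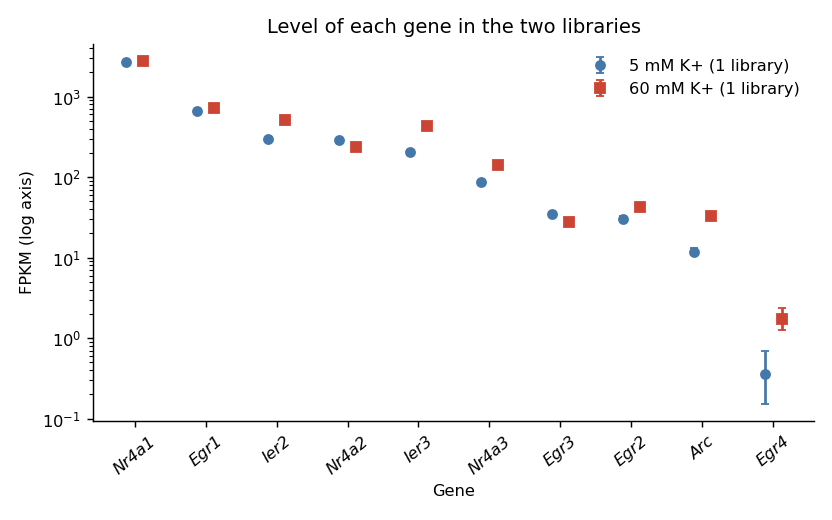
Level of each of the 10 genes in FPKM (fragments per kilobase of transcript, scaled to the total reads of the library, log axis), in the control library (circles) and the depolarized library (squares), with 95% counting intervals and 1 library per condition. *Nr4a1* at 2679 and 2731 FPKM was the highest in both, and *Egr4* at 0.355 and 1.73 FPKM was the lowest.

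Between genes, levels are compared in FPKM, the values the authors deposited per length. In control arteries *Nr4a1* had 2679 FPKM, which placed it at rank 22 among all genes, and *Egr1* had 653 FPKM at rank 106. They were followed by *Ier2* at 294 FPKM and *Nr4a2* at 290 FPKM, whose counting intervals overlapped, by *Ier3* at 207 FPKM and by *Nr4a3* at 87.9 FPKM. *Egr3* at 34.8 FPKM and *Egr2* at 30.0 FPKM also had overlapping intervals. *Arc* had 11.8 FPKM. *Egr4*, at 0.355 FPKM with an interval of 0.153 to 0.700, was the lowest. In depolarized arteries *Nr4a1*, *Egr1* and *Ier2* kept the first 3 places, at 2731, 720 and 509 FPKM. *Ier3* at 426 FPKM moved above *Nr4a2* at 236 FPKM. *Egr2* at 42.5 FPKM and *Arc* at 32.7 FPKM stood above *Egr3* at 27.9 FPKM. These places rest on the lengths behind the deposited FPKM. With GENCODE vM1 exon lengths *Egr3* stayed above both in depolarized arteries, at 527 reads per kilobase compared with 369 for *Arc* and 221 for *Egr2*. In the order by deposited FPKM, no neighbours in depolarized arteries had overlapping intervals. *Egr1* and *Nr4a1* together held 78.7% of the members' control reads and 73.7% of their depolarized reads.

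Among the *Egr* genes, *Egr1*, the family member best known from vascular injury, was the main transcript. *Egr1* (mm9 chromosome 18, 35020861 to 35024638) was counted 25741 times in control and 30564 times in depolarized arteries. The log2(fold-change) of *Egr1* was 0.35, with counting error from 0.33 to 0.37. With total counts it was 0.14, and with scaling to *Ppia* and *Hprt* its direction turned to -0.16. An annotated gene on the opposite strand, *Gm17507*, overlaps its 3′ end, and whether strand was used in counting is not stated. *Gm17507* was not listed in the deposited counts under its GENCODE vM1 identifier. *Egr2* (chromosome 10, 66998223 to 67004936), which directs myelination in Schwann cells, had 492 and 751 reads. Its log2(fold-change) was 0.71 (0.55 to 0.88). *Egr3* (chromosome 14, 70477252 to 70479964) was counted 896 times in control and 774 times in depolarized arteries. Its log2(fold-change) was -0.11, with an interval of -0.25 to 0.03 that includes 0 and with negative values under total counts (-0.32) and the reference genes (-0.62). *Egr4* (chromosome 6, 85461125 to 85463583) had only 8 control reads and 42 depolarized reads. This was a 5.63-fold difference, with a counting interval of 2.61 to 13.9, which is the largest fold of the 10 genes and also the least precise. *Egr4* stood at rank 101 of 14829 genes by log2(fold-change).

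Ratios between genes of 1 library do not depend on the scaling. *Egr3* stood at 116% of *Egr2* in FPKM in control arteries and at 65.7% in depolarized arteries, a change in log2 ratio of -0.82 (Wald interval -1.04 to -0.61). The change does not depend on gene length but the order does, since with GENCODE vM1 lengths *Egr3* was above *Egr2* in both libraries, at 610 and 145 reads per kilobase in control and 527 and 221 in depolarized arteries. Relative to *Egr1*, the log2 ratio changed by 0.36 for *Egr2*, by -0.46 for *Egr3* and by 2.14 for *Egr4* (1.05 to 3.24). *Egr1* was nevertheless 90.9% of the summed *Egr* FPKM in each library, while *Egr2* made up 4.18% and 5.37% and *Egr3* 4.85% and 3.53%. These intervals are for 12 pairs of members and also cover counting error only.

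Of the *Nr4a* genes, *Nr4a3* lay between 0.5 and 1, while *Nr4a2* and the most abundant one, *Nr4a1*, lay nearer to 0. *Nr4a1* (chromosome 15, 101097277 to 101105223), also known as Nur77, took 0.420% of all control reads (Clopper-Pearson interval 0.416% to 0.424%) and 0.428% of all depolarized reads (0.424% to 0.432%). These were 44003 and 48322 reads, a log2(fold-change) of 0.24 (0.22 to 0.26) with TMM, 0.03 with total counts and -0.27 with the reference genes. *Nr4a2* (chromosome 2, 56959241 to 56976414), also known as Nurr1, had fewer reads in depolarized arteries, 6132 compared with 6993, and a log2(fold-change) of -0.09 (-0.14 to -0.04). Its value was also negative with total counts (-0.30) and with the reference genes (-0.60). *Nr4a3* (chromosome 4, 48058025 to 48099319), also known as NOR-1 and studied in vascular smooth muscle growth, had 2986 and 5192 reads, which was 1.87-fold more (1.78 to 1.95). Its log2(fold-change) was 0.90, and it stayed positive with total counts (0.69) and with the reference genes (0.39).

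Within the family, *Nr4a3* was higher relative to both other genes in depolarized arteries. It stood at 30.3% of *Nr4a2* in FPKM in control arteries and at 60.0% in depolarized arteries, a change in log2 ratio of 0.99 (Wald interval 0.91 to 1.07). Relative to *Nr4a1*, the log2 ratio changed by 0.66 for *Nr4a3* (0.60 to 0.73) and by -0.32 for *Nr4a2* (-0.38 to -0.27). *Nr4a1* remained 87.6% and 87.8% of the summed *Nr4a* FPKM.

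*Arc* (chromosome 15, 74499513 to 74503000) had the clearest difference among the well-sequenced members. It went from 378 to 1129 reads, a 3.20-fold increase (counting interval 2.85 to 3.61) and a log2(fold-change) of 1.68 (1.51 to 1.85). It stood at rank 297 of 14829 genes, so that 98.0% of the genes tested had a lower value. With total counts its log2(fold-change) was 1.47 and with the reference genes 1.17, both above 1. Relative to *Nr4a1*, *Arc* stood at 0.441% in FPKM in control arteries and at 1.20% in depolarized arteries. Of the nerve and Schwann cell markers, *Sox10* had 262 and 232 reads and *Uchl1* had 583 and 770 reads. The log2(fold-change) of *Uchl1* was 0.50 and turned to -0.0060 with the reference genes.

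*Ier2* and *Ier3* are both short genes, and their proteins were 18.0% identical over the whole alignment. *Ier3* (chromosome 17, 35958629 to 35959868), also known as IEX-1, had 2459 and 5438 reads, a log2(fold-change) of 1.25 (1.18 to 1.32). Its value was 1.04 with total counts, and with the reference genes it was 0.74 and no longer above 1. *Ier2* (chromosome 8, 87185230 to 87186751) had 4696 and 8751 reads, 1.999-fold of the control level (1.93 to 2.07), and so lay just below the 2-fold threshold. With total counts its log2(fold-change) was 0.79 and with the reference genes 0.49. The summed FPKM of both genes was 501 in control arteries and 935 in depolarized arteries. The log2 ratio of *Ier3* to *Ier2* changed by 0.25 (Wald interval 0.16 to 0.33).

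**Figure D2:**
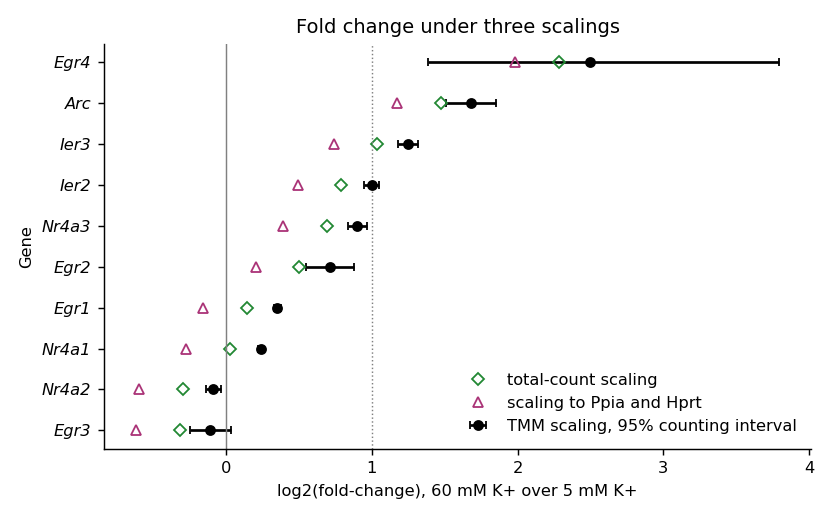
Log2(fold-change) of each gene, 60 mM K+ over 5 mM K+, with TMM scaling (filled circles, 95% counting interval), total counts (diamonds) and scaling to *Ppia* and *Hprt* (triangles); the dotted line marks a 2-fold increase. *Egr4* and *Arc* stay right of that line under every scaling shown, *Ier3* lies left of it with the reference genes, and *Egr1* and *Nr4a1* change sign with the reference genes.

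Other immediate early genes give the context for these values. Their lists were chosen with earlier results of these data known, so the counts are not independent of those results. From 53 genes outside the set, all with at least 10 reads, 19 passed a 2-fold increase and 0 a 2-fold decrease, compared with 5.54% and 5.86% of all genes, and the median log2(fold-change) was 0.85. With scaling to *Ppia* and *Hprt* 8 passed the increase, and no share of all genes is given for that scaling. Of 21 transcription factor genes, 5 passed and all 21 were above 0 with TMM, compared with 49.6% of all genes. Their median was 0.79. The highest with at least 100 reads were *Myc* at 1.68, *Nfil3* at 1.51 and *Id1* at 1.10. The lowest were *Hes1* at 0.26, the neuronal activity factor *Npas4* at 0.31 and *Fos*, a subunit of AP-1, at 0.42, and these 3 values turned negative with the reference genes. Of 32 genes that encode other proteins, 14 passed and the median was 0.89. The highest were the phosphatase gene *Dusp5* at 2.51, the kinase gene *Pim1* at 1.95 and *Gem*, a small GTPase that inhibits Ca2+ channels, at 1.76. The lowest were the matricellular gene *Ccn2* at -0.33, the clock gene *Per1* at -0.12 and *Rgs2* at -0.06. In the same family as *Ier2* by name, *Ier5* had 1373 and 3318 reads and *Ier5l* 321 and 816 reads, with log2(fold-change) of 1.37 and 1.45.

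**Figure D3:**
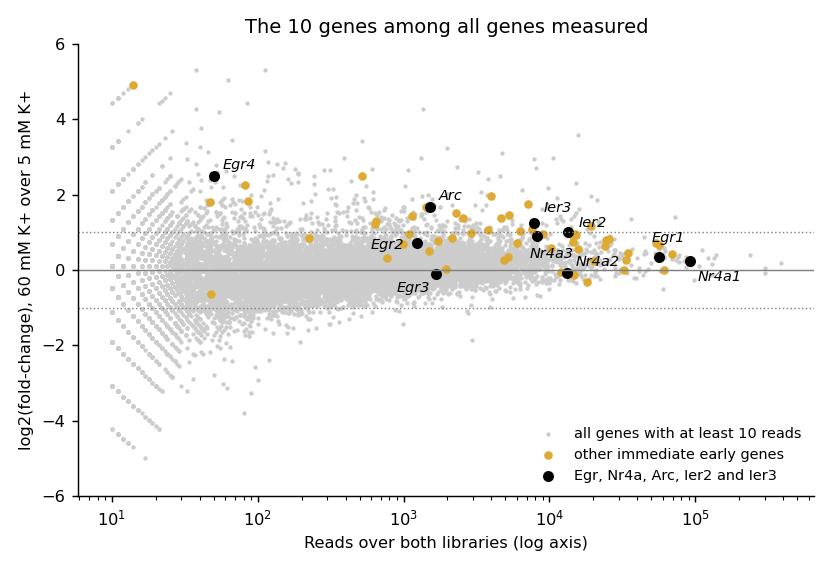
Log2(fold-change) against reads over both libraries (log axis) for all 14829 genes with at least 10 reads (grey; 1 gene lies beyond the axis limit of 6), the other immediate early genes (yellow) and the 10 genes (black), with dotted lines at a 2-fold change. *Egr1* and *Nr4a1* lie at the right with values of 0.35 and 0.24, and *Egr4* lies at the left with 50 reads.

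Some of these genes had levels in control arteries as high as *Egr1* and *Nr4a1*. Of the 10 other immediate early genes with at least 500 FPKM in 5 mM K+, 0 passed a 2-fold increase, and *Egr1* and *Nr4a1* did not either. Among all 169 genes at this level 2.37% passed it, so that counts of 0 are near the background. The log2(fold-change) of the 10 genes ran from -0.33 for *Ccn2* to 0.79 for *Atf3*, with *Gadd45b* at 0.75 and *Fosb* at 0.73. The limit was set after the values were seen, and the 5 mM K+ value enters both the level and the fold-change. *Fos* had 2681 and 3099 FPKM, *Junb* had 1893 and 2601 FPKM, *Btg2* had 1105 and 951 FPKM and *Dusp1* had 1013 and 1053 FPKM. The log2(fold-change) of *Dusp1* was 0.27 and turned to -0.24 with the reference genes.

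No partner or upstream factor passed a 2-fold change, and with lists this short a count of 0 is near the background of 5.54% higher and 5.86% lower. The corepressors of EGR proteins, *Nab1* and *Nab2*, had log2(fold-change) of 0.07 and 0.49. *Nab2*, itself an EGR target, had 266 and 349 reads. The retinoid X receptors, with which NR4A1 and NR4A2 form dimers, were at 0.07 for *Rxra*, -0.00081 for *Rxrb* and -0.20 for *Rxrg*. *Nab1* and *Rxra* turned to -0.14 with total counts, and *Nab2* to -0.02 with the reference genes. Of 15 genes for factors that act on immediate early promoters, 0 passed a 2-fold change in either direction and the median was -0.03. The highest were *Elk1* at 0.46, *Srf* at 0.28 and *Crtc2* at 0.27, and the lowest were *Myocd* at -0.53, *Mef2c* at -0.48 and *Crtc1* at -0.44. With the reference genes *Elk1* turned to -0.05, *Srf* to -0.23 and *Crtc2* to -0.24. *Creb1*, the gene of the factor the study follows, had 633 and 472 reads.

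Genes widely described as EGR1 targets in the vessel wall, a list also chosen with earlier results of these data known, were mixed. Of 10 such genes, 3 passed a 2-fold increase, compared with 5.54% of all genes, and the median was 0.61. With the reference genes 2 passed and the median was 0.10, compared with a median of -0.51 over all genes. No share of all genes past 2-fold is given for this scaling. The 3 were the chemokine gene *Ccl2* at 2.98, the adhesion gene *Icam1* at 2.94 and the urokinase gene *Plau* at 1.35. The study's own list of differentially expressed genes from these libraries already held all 3, and its text named *Ccl2* and *Icam1*. The lowest were *F3*, which encodes tissue factor, at -0.41, *Fgf2* at -0.10 and *Nab2* at 0.49. Outside all lists, the protein-coding genes with at least 1000 reads whose log2(fold-change) was nearest to the members' median were *Adra1d*, with 486 and 791 reads, *Gprc5a*, with 1407 and 2294 reads, and *Dot1l*, with 1720 and 2805 reads. With 2 libraries this likeness rests on 1 ratio per gene.

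**Figure D4:**
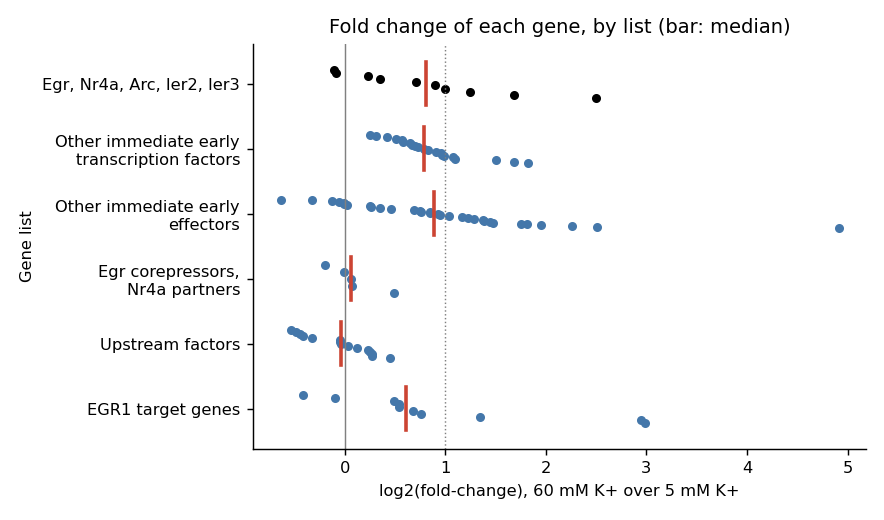
Log2(fold-change) of each gene with at least 10 reads, by list (points), with the median of the list as a vertical bar; the dotted line marks a 2-fold increase. The medians of the 10 genes and of both lists of other immediate early genes lie between 0.79 and 0.89, and those of the partners and upstream factors lie at 0.07 and -0.03.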

How the data were processed

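Poly-A-selected RNA of mesenteric arteries was sequenced by the authors in 2 libraries. They aligned reads to mm9 with TopHat2 (2.0.12) and deposited raw read counts per gene and FPKM values; the submitters' processing notes also name HTSeq 0.6.1, edgeR 3.0.8 and mm8, and the sources used here give no counting options. Total counts had been used to scale the deposited FPKM: over 10388 genes with at least 50 reads in each library, the ratio of counts to FPKM between the libraries was 1.08, equal to the ratio of totals. Of 55573 identifiers, 22972 are absent from GENCODE vM1 (mm9), from which gene positions were taken; these held under 1% of reads.

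Scaling used edgeR 4.0.16 (TMM) and DESeq2 1.42.0 (median of ratios) under R 4.3.3; intervals, motifs and alignments were computed with Python 3.11.15, SciPy 1.17.1 and Biopython 1.88, and figures drawn with matplotlib 3.10.9. Without replicates, edgeR's quasi-likelihood test could not be run, so sizes with counting error replace a test. A count of 0 was set to 0.5 reads. The threshold of 2-fold is the study's; a gene past it is called higher or lower, and genes needed 10 reads over both libraries. The scripts were tested on simulated data. The members and gene lists were chosen with earlier results of these data known. Named genes are all members, the 3 highest and 3 lowest of each list with at least 100 reads, and the 3 genes nearest to the members' median; *Junb*, *Btg2*, *Dusp1*, *Atf3*, *Gadd45b*, *Fosb*, *Ier5*, *Ier5l*, *Creb1* and the nerve markers were added after their values were seen. Alternatives were other scalings, filters, FPKM pseudocounts, call rules and fold thresholds.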

Additional observations from a re-analysis of the deposited data

How the results depend on the processing

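No paired analysis was possible because neither K+ concentration had a replicate. The count of 3 members above 2-fold stayed at 3 with scaling by median of ratios, upper quartile or total counts, without a filter, with at least 1 CPM in 1 library, with FPKM, with the thresholds applied to the counting interval and with the random-sampling test of DEGSeq recomputed from its formula, which compares the libraries; with scaling to *Ppia* and *Hprt* it was 2, and with at least 1000 reads, an alternative chosen after seeing the data, it was 2. With a 1.5-fold threshold it was 6. No share of all genes is given for this threshold, for scalings other than TMM or for unadjusted p. Assuming a spread changed the count: edgeR's exact test with an assumed coefficient of variation of 0.2 and an adjusted p under 0.005 called 0 members (lowest adjusted p = 0.013 with edgeR), with 5 at an unadjusted p under 0.05, and with 0.4 it called 0, with 1 at an unadjusted p under 0.05; these settings add variation by construction. The count of members below a 2-fold decrease was 0 under every alternative run. The median log2(fold-change) of the members, 0.81, was 0.60 with total counts, 0.30 with *Ppia* and *Hprt*, and 0.60 and 0.59 with FPKM and pseudocounts of 0.1 and 1, since these scalings shift every gene. Among the other immediate early genes 19 were above 2-fold, and 8 with scaling to *Ppia* and *Hprt*. Of 10 members, 2 changed sign with that scaling and 0 with total counts or median of ratios. Restricting the promoter window to bases before the start lowered the genes with an NF-kB site from 3 to 2 and left the other counts as they were. Depth limits *Egr4*, with 50 reads over both libraries, and the spread between animals is not measured for any member.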

Other observations

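The order of levels between genes depends on the gene length behind FPKM. Comparing the deposited counts with the deposited FPKM showed that the authors' length was 1567 bases for *Nr4a1*, 1565 bases for *Egr2* and 3760 bases for *Egr1*, compared with exon lengths of 2474, 3398 and 3100 bases in GENCODE vM1. The lengths were close for *Arc* (3055 and 3057 bases), *Ier2* (1524 and 1522 bases) and *Egr4* (2148 and 2138 bases), and both were 1131 bases for *Ier3*. With the GENCODE vM1 lengths, an alternative added after the data were seen, control arteries held 17786 reads per kilobase for *Nr4a1* and 8304 for *Egr1*, which stayed first and second. *Egr2* fell from place 7 to place 9 in depolarized arteries, behind *Egr3* at place 7 and *Arc* at place 8, and in control arteries *Ier3* stood above *Nr4a2* and *Egr3* above *Nr4a3*. Fold-changes between the libraries do not depend on the length.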
